A study of Cicer arietinum with 8 samples.

Results

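The response described is that of leaves of Susceptible1 (Amethyst), a cold susceptible chickpea (Cicer arietinum) genotype, to a week of cold nights. It rests on 1 of the 8 samples of the series and on 3 of its 22 distinct hybridisations. Treated plants were kept at 5 °C for 7 nights and at 15 to 25 °C by day, starting 2 weeks after flowering, and control plants stayed in the glasshouse at 15 to 25 °C. Per the labels 5 treated and 5 control plants were grown for each genotype, and per the study's methods the tissue of each treatment was pooled before RNA extraction, so a replicate is a pool of plants and not a plant. The labels call the 3 replicates biological.

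Each hybridisation set cold-treated RNA against RNA of control plants, matched for genotype and tissue, on a spotted cDNA array, and the value of a feature is the log2 ratio of cold over control. The array carried 756 features other than controls, of which 559 were chickpea cDNAs, 156 were grasspea cDNAs and 41 were lentil resistance gene analogs. Of these, 239 gave a ratio in 3 replicates of Susceptible1 leaves, 263 in 2, 108 in 1 and 146 in none. The 502 features with at least 2 replicates were tested, and all of them are described here by function. The groups used for comparison were leaves of the susceptible DOOEN (Susceptible2), leaves of the tolerant Sonali (Tolerant1) and ILC 01276 (Tolerant2), and the flower, bud and early pod tissue of Amethyst (Susceptible1 flowers), all given the same cold treatment.

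Chickpea is a cool-season legume that is sensitive to chilling around flowering. In leaves, cold slows the enzymes that use light energy faster than it slows light capture, and plants are known to lower their light-harvesting antenna under such an imbalance. Dehydrins and other dehydration-induced proteins protect cell contents when water is withdrawn, pathogenesis-related proteins and small cysteine-rich peptides act against microbes, and several of these families are known to respond to cold as well as to disease or drought. A cDNA probe can bind transcripts of close relatives of its own gene, so features of 1 family that share a name may report overlapping transcripts.

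The hybridisations were of unequal quality. In replicate 1 only 30.6% of the spots were unflagged in both channels, against 65.7% in replicate 2 and 62.7% in replicate 3, and 278, 566 and 507 features gave a ratio. The median spot was 2.58, 5.45 and 3.65 times its local background in the cold channel, and 1.11, 2.93 and 5.37 times in the control channel. Cold RNA carried Cy5 in replicates 1 and 2 and Cy3 in replicate 3, and the Cy5 channel was the brighter one over background in 22 of the 22 hybridisations of the series. The file headers named no dye for replicate 1, whose dyes came from the file names. Spots of 1 feature within a hybridisation had a median SD of 0.12, 0.08 and 0.09 on the log2 scale, whereas replicates of 1 feature had a median SD of 0.34. Replicates thus differed more than spots did. The SE came from a limma model in which all 8 groups of the series share the estimate of the spread of a feature. Its median was 0.28, and the median half-width of the 95% confidence interval was 0.60. The SD printed with a mean is that of the group alone.

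Leaf identity was examined through transcripts of photosynthesis, by the percentile rank of each feature within the control channel. Of 32 photosystem and electron transport features, 28 ranked higher in Susceptible1 leaves than in Susceptible1 flowers, 11 of them without overlap of replicates, and the median rank was 59.9 in leaves and 53.6 in flowers. Of all 756 features 366 ranked higher in leaves, and 71 (9.39%) did so without overlap. The 9 chlorophyll a/b binding proteins of the antenna did not follow this. Only 3 of them ranked higher in leaves, none without overlap, and the median rank was 86.1 in leaves and 86.9 in flowers. The flower sample also held buds and early pods, and whether these bear on the antenna ranks was not tested.

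The first question was which transcripts responded to cold in these leaves. Of the 502 features tested, limma called 4 (0.797%), of which 2 were induced (0.398%) and 2 repressed (0.398%). A call needed an adjusted p below 0.05 and an at least 2-fold change. At an unadjusted p below 0.05 there were 48 features (9.56%), 26 above 0 (5.18%) and 22 below 0 (4.38%). Over all features tested the median was 0.02, the range was -2.14 to 1.35, and 266 means lay above 0 against 236 below. As leaves are a mixture of cells, a lower ratio could come from fewer cells of a type or from less transcript in each, which cannot be told apart here.

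A SNAKIN2 antimicrobial peptide precursor (CV793608), whose family of small cysteine-rich peptides inhibits bacteria and fungi, was induced. Its log2 ratios were 0.66, 0.79 and 2.00 in replicates 1, 2 and 3, with a mean of 1.15 ± 0.74 (SD, n = 3, 2.22-fold, adjusted p = 0.0443 by limma). All replicates were above 0, but replicate 3 was far higher than the other two, and replicate 1 rested on 2 spots. Under the limma fit with a replicate block its adjusted p was 0.0570.

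An unknown transcript (DY475377) was induced as well, with log2 ratios of 0.72, 1.69 and 1.10 and a mean of 1.17 ± 0.49 (SD, n = 3, 2.25-fold, adjusted p = 0.0443 by limma). It had 6 spots in each replicate, and all 3 values were above 0.

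The lowest called value was that of a transcript of unclear function (EB085017), whose log2 ratios were -1.37, -1.47 and -0.89. Its mean was -1.24 ± 0.31 (SD, n = 3, a 2.37-fold decrease, adjusted p = 0.0443 by limma). This was the narrowest spread among the called features.

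A chlorophyll a/b binding protein (DY475454), a pigment-carrying protein of the light-harvesting antenna, was repressed. It had log2 ratios of -1.38, -1.45 and -0.19 and a mean of -1.01 ± 0.71 (SD, n = 3, a 2.01-fold decrease, adjusted p = 0.0443 by limma). Replicate 3, the swapped one, lay near 0 while the other two were alike. With the replicate block its adjusted p was 0.0570 by limma. With a dye term for each feature it was not called.

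These calls were not firm. With the replicate block 2 features stayed called, DY475377 and EB085017, each at an adjusted p of 0.0466 by limma. With the quantification date as a block, with the group fitted alone, with no background correction and with a loess curve per sub-array, none of the 4 was called (34, 39, 46 and 49 features at an unadjusted p below 0.05). Under the date block DY475377 and EB085017 had an adjusted p of 0.155 by limma. Without replicate 1 the limma model called 0 of 484 features (41 at an unadjusted p below 0.05), and without replicate 2 it called 0 of 249 (23 at an unadjusted p below 0.05). Without replicate 3 it called 5 of 247, 3 induced and 2 repressed, and SNAKIN2 (CV793608) was not among them. Over the 15 alternatives that kept all replicates, SNAKIN2 and DY475454 each stayed called in 4, and DY475377 and EB085017 each in 8. With median centring in place of the loess curve it called 0 induced and 2 repressed features. One more unknown transcript (DY475437) had an adjusted p of 0.0443 by limma but stayed under 2-fold, at 0.59, 0.87 and 0.72 in the replicates and 0.73 ± 0.14 in the mean (SD, n = 3).

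**Figure D1:**
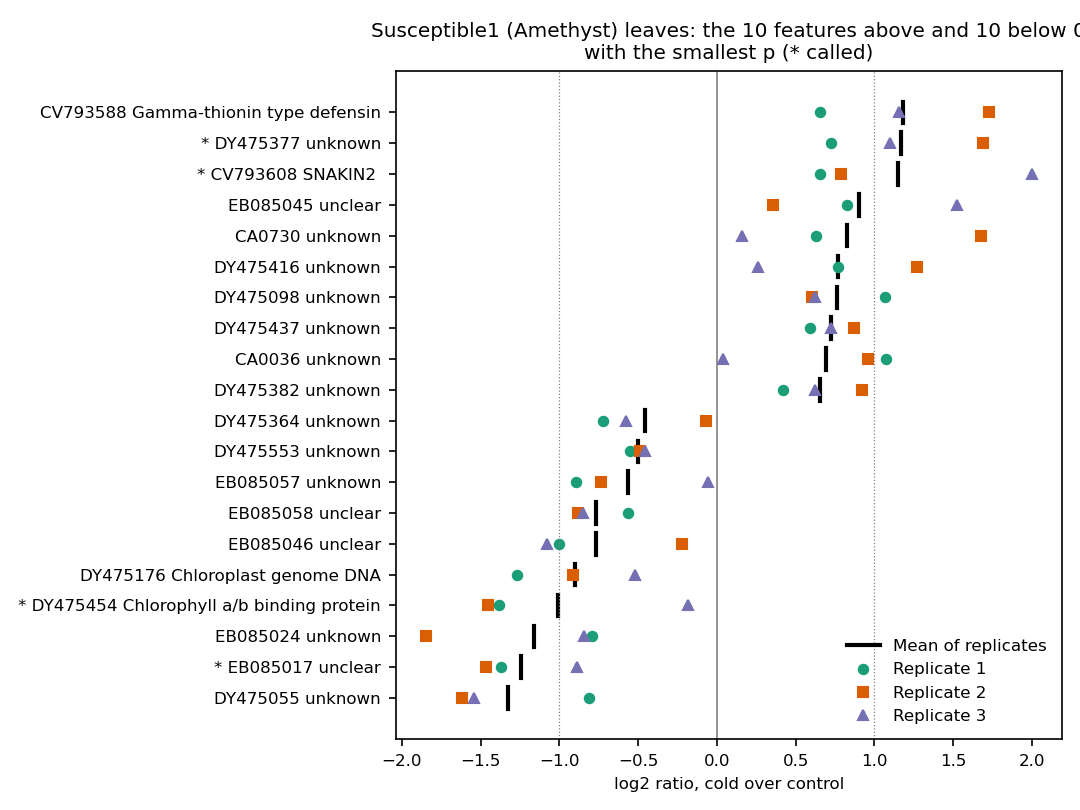
Log2 ratio of cold over control (x axis) in each replicate of Susceptible1 (Amethyst) leaves for the 10 features above 0 and the 10 below 0 with the smallest p among those measured in 3 replicates; black bars are means, dotted lines mark 2-fold and asterisks mark the 4 called features. In every feature shown the replicates share a sign, yet replicate 3 of SNAKIN2 (CV793608) reached 2.00 and replicate 3 of the chlorophyll a/b binding protein (DY475454) only -0.19.

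In all, 15 features had an at least 2-fold mean, 7 of them up and 8 down, and each was at an unadjusted p below 0.05. Only 8 of the 15 had values in 3 replicates. All 15 were chickpea cDNAs, and 8 of them were unknown or unclear, as were 230 of the 502 tested (45.8%). No grasspea feature reached 2-fold, and 1 of 70 grasspea features against 47 of 432 chickpea features was at an unadjusted p below 0.05. Their precision was unequal, with 3 replicates for only 4 of the 70 grasspea features and for 235 of the 432 chickpea features. The median SE was 0.43 for grasspea and 0.27 for chickpea, so these counts do not show that grasspea features responded less. The share of features that could be tested was 44.9% for grasspea and 77.3% for chickpea, and 0 of the 41 lentil analogs were tested. Among features with 3 replicates, 85 of 239 (35.6%) had the same sign in each.

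Transcripts of photosynthesis were described by complex. Of the 8 chlorophyll a/b binding proteins tested, 6 had means below 0 and 2 above, with a median of -0.34 against 0.02 over all features tested. One was called and 2 were at an unadjusted p below 0.05, both below 0, beside 0.797% called and 9.56% at that limit over all features. The second of these (DY475202) had log2 ratios of -0.29, -0.74 and -0.02, a mean of -0.35 ± 0.37 (SD, n = 3) and an adjusted p of 0.483 by limma. A further pair with one sign in 3 replicates were DY475489, at -0.17, -0.69 and -0.32, and DY475163, at -0.10, -0.88 and -0.02.

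The antenna features were lowest in replicate 2. Their median was -0.22 in replicate 1, -0.69 in replicate 2 and -0.10 in replicate 3. Both positive means came from features without one sign, DY475430 at 0.32, -0.10 and 0.00, and DY475555 with only replicates 2 and 3, at 0.72 and -0.24. The ninth antenna feature gave a ratio in replicate 1 only and was not tested.

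The photosystems and the electron transport chain, which carry captured energy on to NADP, were a larger list, whose difference from the antenna was not tested. Of 27 features tested, 11 means lay above 0 and 16 below, the median was -0.07 and 0 were called. The one furthest above 0 with 3 replicates was similar to ferredoxin-thioredoxin reductase (DY475304), which passes electrons to the thioredoxins that switch chloroplast enzymes on in the light. Its log2 ratios were 0.90, 0.39 and 0.93, with a mean of 0.74 ± 0.30 (SD, n = 3, adjusted p = 0.321 by limma). At the other end stood the photosystem I assembly protein ycf3 (DY475345), at -0.86, -1.04 and 0.12.

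Chloroplast genome sequences, which pick up organelle transcripts, had 4 means above 0 and 4 below and a median of -0.17. The chloroplast genome DNA feature DY475176 had log2 ratios of -1.27, -0.92 and -0.52, a mean of -0.90 ± 0.37 (SD, n = 3) and an adjusted p of 0.109 by limma. All of its replicates were below 0. Ribosomal RNA features had 10 of 12 means below 0, beside 236 of 502 over all features tested. Their median was only -0.10 and 0 of them were at an unadjusted p below 0.05. Among them a chloroplast 16S rRNA (DY475146) had -0.43, -0.86 and -0.68, whereas a 26S rRNA (EB085055) was near 0 in replicates 1 and 2 (-0.01 and -0.02) and at -1.89 in replicate 3.

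Small cysteine-rich antimicrobial peptides had the highest median of the lists with at least 5 tested features, 0.41 over 5 of 12. All 5 means were above 0, 1 was called and 2 were at an unadjusted p below 0.05, beside 0.797% and 9.56% over all features. Besides SNAKIN2 this was a gamma-thionin (CV793588), listed as a defensin or protease inhibitor, of the plant defensin family. Its log2 ratios were 0.66, 1.73 and 1.15, with a mean of 1.18 ± 0.54 (SD, n = 3, adjusted p = 0.216 by limma). That mean was slightly above the mean of SNAKIN2, but the value in replicate 1 came from 1 spot and the call was not reached.

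The remaining 3 tested peptides were grasspea features named disease resistance response protein 39. They lay between -0.26 and -0.03 in replicate 2 and between 0.66 and 0.84 in replicate 3, and replicate 1 gave no value. The other SNAKIN2 precursor (CV793606) gave a ratio only in replicate 3, at 0.43.

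Pathogenesis-related and other defence transcripts split by replicate rather than by direction. Their median was 0.03 over 19 of 33 features, with 10 means above 0 and 9 below, and 0 at an unadjusted p below 0.05. Behind this, the median was -0.54 in replicate 2 and 0.76 in replicate 3. The 5 features of pathogenesis-related protein 4A, of a family of antifungal proteins, all had this shape. They ranged from -1.41 to -0.54 in replicate 2 and from 0.94 to 1.73 in replicate 3, without overlap. The only one with a value in replicate 1 (CV793597) was at -1.31 there, and its mean was -0.04 ± 1.58 (SD, n = 3).

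Dehydration, cold and other stress-induced transcripts had a median of -0.47 over 11 of 18 features, with 4 means above 0 and 7 below and 2 at an unadjusted p below 0.05. The list median was -0.55 in replicate 1, -0.02 in replicate 2 and 0.05 in replicate 3. The lowest mean of the whole array was that of a dehydration-induced protein (DY475070). It had -1.07 in replicate 2 and -3.22 in replicate 3 and no value in replicate 1, and its mean of -2.14 ± 1.52 (SD, n = 2) had an adjusted p of 0.230 by limma. In replicate 3 its cold channel was only 2.05 times the local background and its control channel 21.3 times, and 3 spots were usable. In Tolerant1 leaves DY475070 had nearly the same values, -1.09 in replicate 2 and -3.25 in replicate 3.

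A second dehydration-induced protein (DY475192) had -0.02 in replicate 2 and -1.34 in replicate 3. The phosphate-induced protein DY475076, chosen after its values were seen, had -0.23 and -2.23 in the same replicates. The aluminium-induced protein DY475138 had -0.07, 0.63 and -2.18. In each of these the low value was that of replicate 3, and the other replicates were near 0 or above it. Replicate 3 of Tolerant1 leaves was also below 0 for DY475192, DY475076 and DY475138, at -0.68, -1.87 and -1.70.

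Dehydrins did not share a direction. The dehydrin-cognate DY396324 had log2 ratios of 0.70 in replicate 2 and 1.19 in replicate 3, a mean of 0.94 ± 0.35 (SD, n = 2) and an adjusted p of 0.632 by limma. The dehydrin cold-induced protein DY475092 gave a ratio only in replicate 3, at -0.50, and a dehydration stress-induced protein (DY396321) only in replicate 2, at 1.19. With 1 value each, these last 2 features were not tested.

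Metallothioneins, small proteins that bind metal ions, were among the better measured of the stress list. The metallothionein-like protein 1 DY396406 had -1.40, -0.59 and 0.21 in replicates 1, 2 and 3, with a mean of -0.59 ± 0.81 (SD, n = 3). The 3 features of that name ranged from -0.59 to 0.04 in replicate 2 and from 0.07 to 0.66 in replicate 3. The 2 of them with a value in replicate 1 were at -1.40 and -0.92 there. The metallothionein MT-2 (DY475049) was above 0 in each replicate, at 0.05, 0.03 and 0.46, with a mean of 0.18 ± 0.24 (SD, n = 3). Another metallothionein-like protein (DY396295) had -0.55, -0.56 and 0.05.

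Auxin-repressed proteins are transcripts that the hormone auxin keeps low and that are common in tissue that has stopped growing. Their list, which also held senescence and ripening features, had the lowest median of those lists, -0.49 over 7 of 16 features, with 1 mean above 0 and 6 below. None was at an unadjusted p below 0.05. The 6 auxin-repressed proteins ranged from -1.66 to -0.85 in replicate 3, where all were below 0, and from -0.28 to 1.78 in replicate 2, where 2 were. The 2 replicates did not overlap, so the low median rests on replicate 3. The PPF1 post floral protein (DY475509) had -0.06, -0.26 and -0.28.

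**Figure D2:**
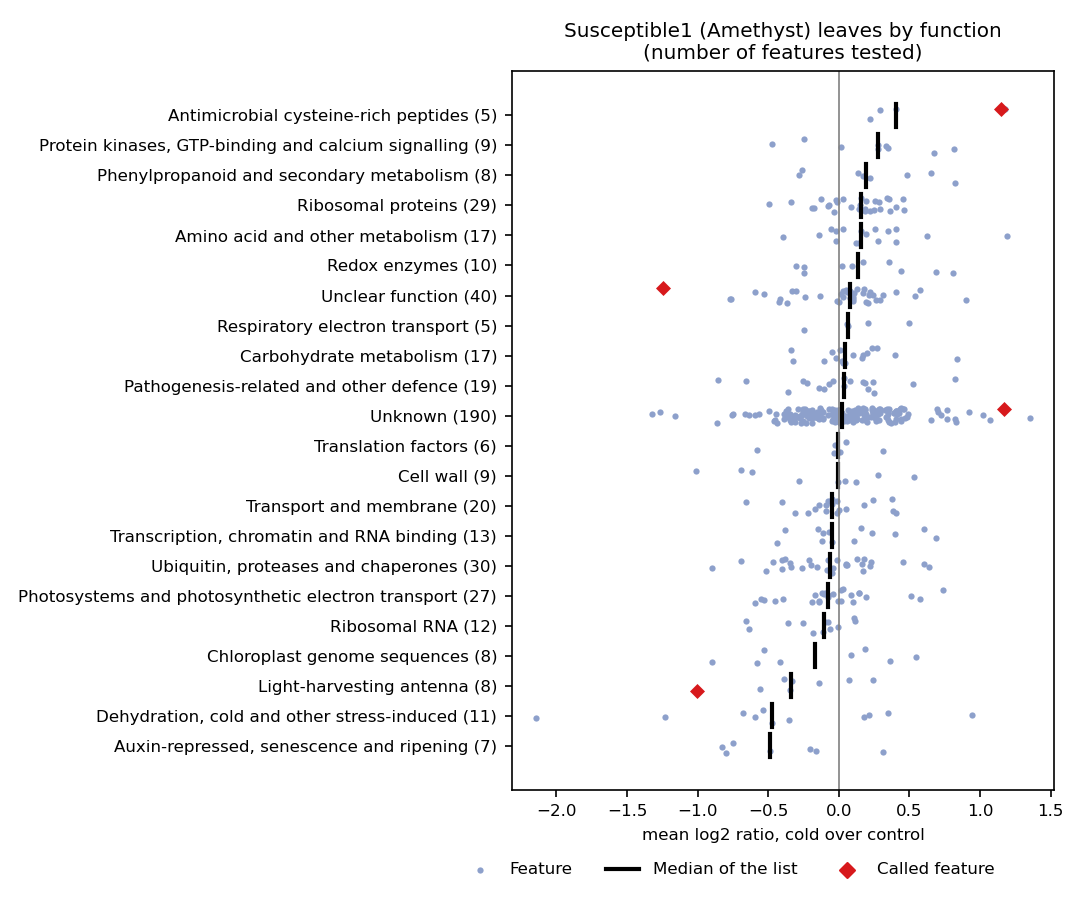
Mean log2 ratio of cold over control (x axis) of each tested feature in Susceptible1 (Amethyst) leaves, by function, with the number tested in brackets and only functions with at least 5 tested features; black bars are medians and red diamonds are the 4 called features. Medians run from -0.49 for auxin-repressed, senescence and ripening transcripts to 0.41 for antimicrobial cysteine-rich peptides, and the points of every function spread over both sides of these medians.

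The list medians of transcripts that make or remove proteins lay near 0. Ribosomal proteins had a median of 0.16 over 29 of 31 features, with 19 means above 0 and 10 below, and 0 called. The 60S ribosomal protein L14 (DY475312) had 0.55, 0.02 and 0.53, with a mean of 0.36 ± 0.30 (SD, n = 3, adjusted p = 0.330 by limma). The 50S ribosomal protein L27 (DY475359), of the chloroplast or mitochondrial type of ribosome, had 0.60, 0.11 and 0.67, while a chloroplast 30S ribosomal protein S7 (DY475238) had -0.07, -0.33 and -1.07. For the list the median was 0.53 in replicate 1, -0.12 in replicate 2 and 0.15 in replicate 3.

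Ubiquitin, which tags proteins for removal, was represented by many grasspea features. With proteases and chaperones the list had a median of -0.06 over 30 of 40 features, 12 means above 0 and 18 below, and 0 at an unadjusted p below 0.05. Its means ranged from -0.90 to 0.64, only 6 of the 30 features had 3 replicates, and its median SE was 0.42. All 5 features named ubiquitin had means below 0, from -0.69 to -0.07. Of 11 polyubiquitins 8 were below 0, and in replicate 3 all 11 were, between -0.96 and -0.22. In replicate 2 they spread from -0.63 to 1.20, with 5 below 0.

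**Figure D3:**
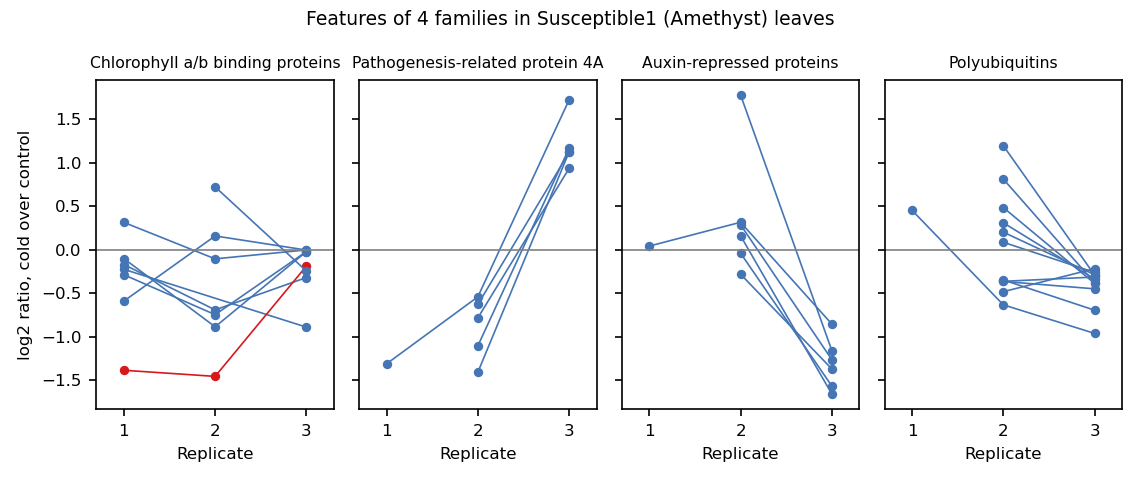
Log2 ratio of cold over control (y axis) of each tested feature in replicates 1, 2 and 3 of Susceptible1 (Amethyst) leaves for 4 families; a line joins the values of 1 feature, and red marks the called chlorophyll a/b binding protein (DY475454). Pathogenesis-related protein 4A was at -0.54 or lower in replicate 2 and at 0.94 or higher in replicate 3, and auxin-repressed proteins were at -0.85 or lower in replicate 3 only.

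Signalling transcripts depended on the replicate. Protein kinases, GTP-binding and calcium signalling features had a median of 0.28 over 9 of 30 features, 7 means above 0 and 2 below, and 3 at an unadjusted p below 0.05. The list median was -0.06 in replicate 1, 0.59 in replicate 2 and -0.24 in replicate 3. Both histidine-containing phosphotransfer proteins, which relay cytokinin signals and were chosen after their values were seen, were among the 3. The grasspea ATHP3 (DY396300) had 0.96 in replicate 2 and 0.67 in replicate 3, with a mean of 0.82 ± 0.20 (SD, n = 2, adjusted p = 0.109 by limma). The chickpea feature (DY475511) had 0.78 and 0.57, with a mean of 0.68 ± 0.15 (SD, n = 2, adjusted p = 0.230 by limma). They were alike in replicates 2 and 3, but both probes were set against chickpea RNA and may report overlapping transcripts. The third feature, a protein kinase (DY475470), had -0.06, -0.38 and -0.98.

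Among enzymes, S-adenosylmethionine decarboxylase (DY475170), which makes a precursor of the polyamines and was chosen after its values were seen, had the highest mean. It had 0.97 in replicate 2 and 1.41 in replicate 3, with a mean of 1.19 ± 0.31 (SD, n = 2, adjusted p = 0.295 by limma). Amino acid and other metabolism as a whole had a median of 0.16 over 17 of 29 features, and carbohydrate metabolism a median of 0.05 over 17 of 24. Redox enzymes had 7 means above 0 and 3 below with a median of 0.13.

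Phenylpropanoid and secondary metabolism, the route to lignin and flavonoids, had 6 means above 0 and 2 below with a median of 0.19, and 0 of its 8 tested features were at an unadjusted p below 0.05. Cinnamyl-alcohol-dehydrogenase (CV793602), a lignin enzyme, was among the most even features, at 0.17, 0.27 and 0.21. Of the cell wall list, the beta-galactosidase DY475141, chosen after its values were seen, had -0.33 in replicate 2 and -1.70 in replicate 3, with a mean of -1.01 ± 0.97 (SD, n = 2, adjusted p = 0.365 by limma).

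Actin (DY475300), a cytoskeleton protein often used as a constant reference, was uneven. Its log2 ratios were 1.79, 0.24 and -0.02, with a mean of 0.67 ± 0.97 (SD, n = 3, adjusted p = 0.451 by limma). Replicate 1, the one with the fewest usable spots, carried the offset. An actin regulating protein (DY475525) had the same shape, at 0.98, 0.04 and 0.06.

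Transcripts without a known role were the largest list, with 190 of the 502 features tested (37.8%). Of these, 101 means were above 0 and 89 below, with a median of 0.02, and 24 of the 48 features at that limit were among them, 14 above 0 and 10 below. That was 12.6% of the unknown features, near the 9.56% over all features tested. After the called features and DY475437, those with the smallest p among unknowns with 3 replicates were DY475382, at 0.42, 0.92 and 0.62, CA0730, at 0.63, 1.68 and 0.16, and CA0036, at 1.07, 0.96 and 0.04. Below 0 the unknown DY475055 had -0.81, -1.62 and -1.54, with a mean of -1.32 ± 0.44 (SD, n = 3, adjusted p = 0.191 by limma), and EB085024 had -0.80, -1.85 and -0.84. The most even was DY475553, at -0.55, -0.49 and -0.46. Of 40 features of unclear function, EB085045 stood highest, at 0.82, 0.36 and 1.52, with a mean of 0.90 ± 0.59 (SD, n = 3, adjusted p = 0.230 by limma).

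The replicates shared little of their variation across features. Pearson's r was 0.33 between replicates 1 and 2 (247 features), 0.15 between replicates 1 and 3 (249 features) and 0.12 between replicates 2 and 3 (484 features). These coefficients are across features, which are not independent, and describe the hybridisations only. With the same-numbered hybridisation of Tolerant1 (Sonali) leaves r was 0.29 (170 features) for replicate 1, 0.62 (461 features) for replicate 2 and 0.73 (497 features) for replicate 3. Replicate 3 of Amethyst leaves was thus more like replicate 3 of Sonali leaves than like the other replicates of its own group. With replicate 3 of Susceptible1 flowers its r was 0.61 (461 features). That flower hybridisation had the same dye order and quantification date.

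Dye order moved with part of this. The 3 hybridisations of other leaf groups in which cold RNA carried Cy3, as in replicate 3, had r of 0.29 to 0.73 with it, and the 6 in which it carried Cy5 had r of -0.24 to 0.36. For replicate 1, r was 0.07 to 0.32 (median 0.25) for the 6 of the same dye. It was 0.05 to 0.18 (median 0.07) for the 3 of the opposite one. For replicate 2 the order was not kept, with r of 0.06 to 0.62 for the 6 of the same dye and 0.19 to 0.48 for the 3 of the opposite one. With a dye term for each feature, limma called 3 of 495 features, 2 induced and 1 repressed. The chlorophyll a/b binding protein DY475454 was not among them.

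The medians of some lists can be set side by side for same-numbered replicates of Amethyst and Sonali leaves. Over the features measured in replicates 2 and 3 of both groups, the 18 pathogenesis-related and other defence transcripts had a median of 0.61 in Susceptible1 and 0.58 in Tolerant1 leaves in replicate 3, and of -0.54 in Susceptible1 and 0.03 in Tolerant1 leaves in replicate 2. The 7 auxin-repressed, senescence and ripening transcripts had -1.26 in Susceptible1 and -0.92 in Tolerant1 leaves in replicate 3, and 0.16 in Susceptible1 and -0.48 in Tolerant1 leaves in replicate 2. The 6 antenna features had -0.72 in Susceptible1 and -0.53 in Tolerant1 leaves in replicate 2, and -0.02 in Susceptible1 and -0.11 in Tolerant1 leaves in replicate 3. The 5 antimicrobial peptides had 0.84 in Susceptible1 and -0.48 in Tolerant1 leaves in replicate 3, and -0.03 and 0.09 in replicate 2. In replicate 3 of Tolerant1 leaves 3 of the 5 were below 0. SNAKIN2 (CV793608) was at 1.39 there and the gamma-thionin (CV793588) at 1.99, so these peptides were above 0 in both groups. Medians of same-numbered lists were thus alike in some cases and opposite in others. As these pairs also shared their dye order, the replicate and the dye order cannot be told apart in these values. The pairs shared their quantification date as well.

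**Figure D4:**
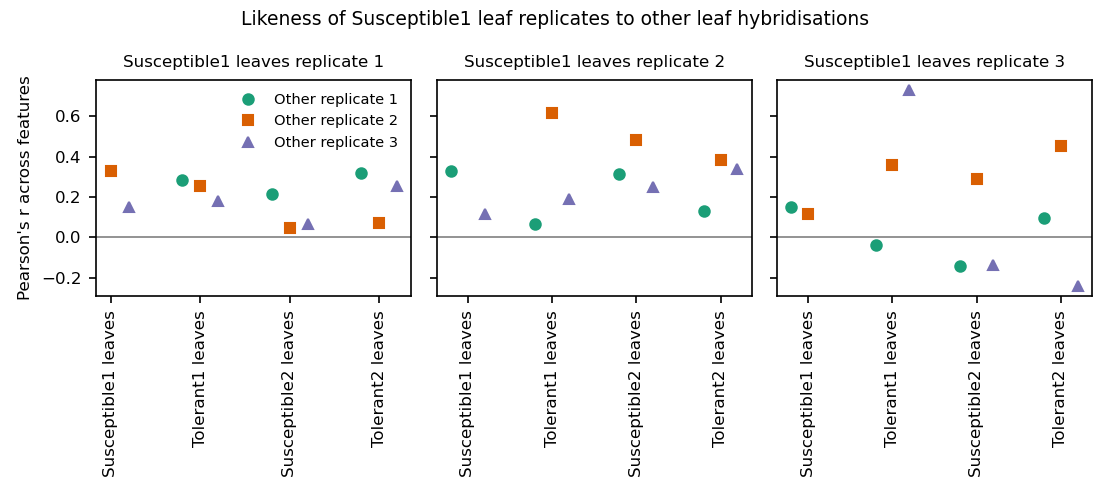
Pearson's r across features (y axis) of each replicate of Susceptible1 (Amethyst) leaves with the other leaf hybridisations, by group and replicate number. Replicates 2 and 3 reached their highest r, 0.62 and 0.73, with the same-numbered replicate of Tolerant1 leaves, against 0.12 with each other.

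The last comparison asked whether the response of Amethyst leaves differed from that of the most similar groups, by the contrast itself. Limma called 0 features in each of 4 contrasts. Against Susceptible2 leaves 0 of 475 features were called (0.00%), with 13 (2.74%) at an unadjusted p below 0.05. Against Tolerant1 leaves 0 of 463 were called (0.00%), with 5 (1.08%) at an unadjusted p below 0.05. Against the mean of the other leaf groups 0 of 445 were called (0.00%), with 4 (0.899%), and against Susceptible1 flowers 0 of 450 were called (0.00%), with 20 (4.44%). The median half-width of the 95% interval of a difference was 0.79, 0.86, 0.66 and 0.82 in these 4 contrasts. These are intervals of single features, without adjustment for the number of features tested. Differences of more than 2-fold also went uncalled, such as -1.15 for DY475136 against Susceptible2 leaves (adjusted p = 0.976 by limma). The absence of calls therefore does not show that the groups respond alike.

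SNAKIN2 (CV793608) had means of 1.15 ± 0.74 in Susceptible1 leaves (SD, n = 3), against 1.41 ± 0.18 in Susceptible2 leaves (SD, n = 3), 1.33 ± 0.08 in Tolerant1 leaves (SD, n = 2) and 1.66 ± 0.30 in Tolerant2 leaves (SD, n = 3). Its difference from the mean of the other leaf groups was -0.32, with a 95% interval of -0.95 to 0.32. In Susceptible1 flowers its mean was 0.12 ± 0.45 (SD, n = 3), and the difference of leaves minus flowers was 1.02, with an interval of 0.27 to 1.78 (unadjusted p = 0.0112, adjusted p = 0.837 by limma).

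The called chlorophyll a/b binding protein (DY475454) averaged -1.01 ± 0.71 in Susceptible1 leaves (SD, n = 3), against -0.21 ± 0.13 in Susceptible2 leaves (SD, n = 3). It averaged -0.81 ± 0.11 in Tolerant1 leaves (SD, n = 2) and -0.54 ± 0.23 in Tolerant2 leaves (SD, n = 3), so its mean was below 0 in every leaf group. The difference from Susceptible2 leaves was -0.79, with an interval of -1.48 to -0.10 (adjusted p = 0.976 by limma). In Susceptible1 flowers it averaged -0.02 ± 0.22 (SD, n = 3), and the difference of leaves minus flowers was -0.98, with an interval of -1.67 to -0.29 (adjusted p = 0.837 by limma). The replicates of leaves and flowers overlapped, because replicate 3 of leaves was at -0.19 and replicate 1 of flowers at -0.20.

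The unknown DY475377 averaged 1.17 ± 0.49 in leaves and 0.08 ± 0.03 in flowers of Susceptible1 (SD, n = 3 each), without overlap. The difference was 1.09, with an interval of 0.39 to 1.79 (unadjusted p = 0.00434, adjusted p = 0.837 by limma). Another unknown, DY475382, had the smallest p of that contrast, at 0.65 ± 0.25 in leaves and -0.13 ± 0.30 in flowers (SD, n = 3 each) and a difference of 0.78, with an interval of 0.30 to 1.26. EB085017 was below 0 in both tissues, at -1.24 ± 0.31 in leaves and -0.80 ± 0.39 in flowers (SD, n = 3 each). In leaves of Susceptible2, Tolerant1 and Tolerant2 its means were -0.54, -1.26 and -1.41 (n = 3, 2 and 3). Those of DY475377 in the same groups were 0.59, 0.86 and 0.95 (n = 3 each).

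**Figure D5:**
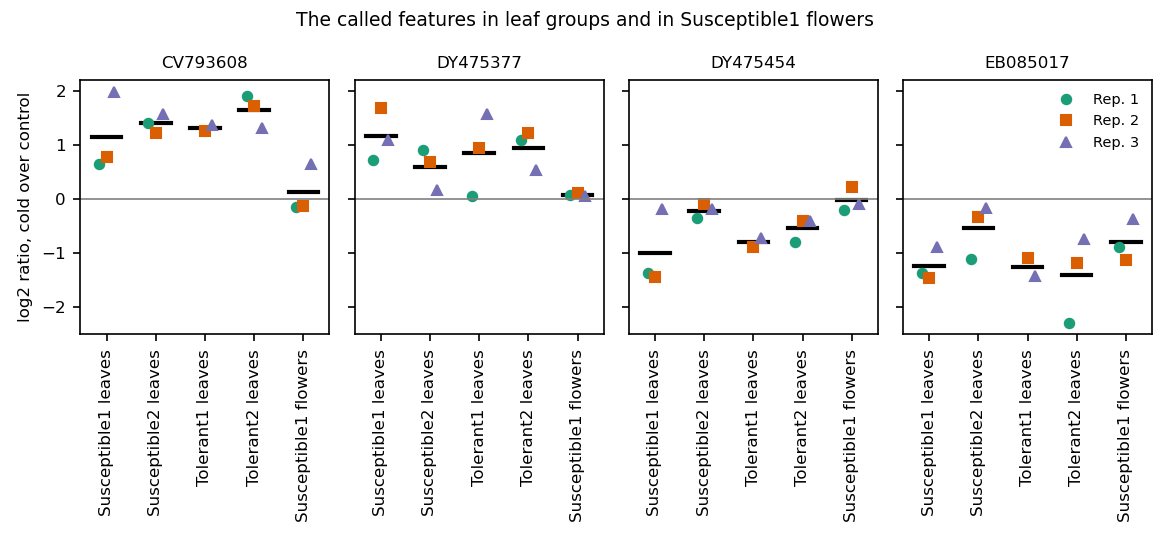
Log2 ratio of cold over control (y axis) of the 4 called features in each replicate of Susceptible1 leaves, the other leaf groups and Susceptible1 flowers; black bars are means. SNAKIN2 (CV793608) averaged 1.15 in leaves and 0.12 in flowers of Susceptible1, and the chlorophyll a/b binding protein (DY475454) averaged -1.01 in leaves and -0.02 in flowers.

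Between genotypes the smallest p in the contrast with Susceptible2 leaves was that of a cytochrome P450 (DY475136), with means of -0.29 ± 0.40 in Susceptible1 leaves and 0.87 ± 0.59 in Susceptible2 leaves (SD, n = 3 each). The difference was -1.15, with an interval of -1.99 to -0.32 (unadjusted p = 0.00975, adjusted p = 0.976 by limma). The next was an unknown (DY475268), with -0.32 ± 0.66 and 0.57 ± 0.12 in the same groups (SD, n = 3 each).

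Against Tolerant1 leaves the smallest p belonged to an unknown (DY475051), with -1.27 ± 0.35 in Susceptible1 leaves and -0.10 ± 0.41 in Tolerant1 leaves (SD, n = 2 each). A xylosidase (DY475408), a cell wall enzyme, had -0.69 ± 0.59 in Susceptible1 leaves and -2.03 ± 0.02 in Tolerant1 leaves (SD, n = 2 each). Their adjusted p by limma was 0.998.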

How the data were processed

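Spot intensities, local backgrounds and quality flags were taken from the deposited scanner files, 1 file per channel, which the authors made with ImaGene 5.5, per the headers, without normalization. The authors also deposited log2 values, 1 mean per feature and group; per the methods these followed background correction, removal of flagged spots, LOWESS and combination of replicates, and both their shift and their centring are unstated. Those log2 values served only as an alternative.

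Intensities were corrected with normexp (offset 50) in limma 3.58.1 (R 4.3.3). One loess curve per hybridisation (span 0.3, 4 iterations) was fitted on unflagged spots, and fitting on unflagged spots was chosen after the data were seen. Spots flagged in either channel were left out, swapped hybridisations were turned to cold over control, and the 6 spots of a feature were averaged. Features had to reach 2 times background in 1 channel of 1 replicate, which 738 of 756 did.

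One limma model over the 8 groups gave group means, SE and two-sided tests, with Benjamini-Hochberg adjustment over all features with values from at least 2 replicates. Calls needed an adjusted p under 0.05 together with a log2 ratio of 1 or more in size, and contrasts only the adjusted p. The scripts were tested on simulated data. Names came from the study's feature list. Every feature was placed in 1 function list by its name, and the lists, the rules and the choice of the group were made with earlier results of these data known. Features were named where they were called, had the 10 smallest p above or below 0 with 3 replicates, lay at the ends of a list, belonged to a fixed set (dehydrins and dehydration-induced proteins, SNAKIN2, gamma-thionin, actin, chlorophyll a/b binding proteins) or led a contrast; others are marked as chosen after their values were seen.

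Deviations from the group means of same-numbered Susceptible1 and Tolerant1 leaf hybridisations correlated at 0.38, 0.507 and 0.482 across features. These hybridisations also shared their dye order and quantification date, so the correlations do not show that replicate numbers pair the groups. A fit with a random replicate block was run beside the main one. Each block joined same-numbered hybridisations of the same tissue, of Susceptible1 with Tolerant1 or of Susceptible2 with Tolerant2. The correlation of deviations was examined for Susceptible1 and Tolerant1 leaves only. Background correction, normalization, filters, spot averaging, the quantification date and a dye term were varied too. For arrays the precision is limited by their number. Sequences and genome positions were not analysed here.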

Additional observations from a re-analysis of the deposited data

How the results depend on the processing

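The count of 4 called features (limma) was 3 with a dye term and 4 with background subtraction, without the filter on dim features and with a filter on spots. It was 2 with the replicate block (1 induced, 1 repressed), 2 with median centring (0 induced, 2 repressed) and 2 with the loess curve fitted on all spots, an alternative chosen after the data were seen (1 induced, 1 repressed). It was 1 with flagged spots kept, of 738 tested, and 1 with the median over spots. It was 0 with no background correction (46 at an unadjusted p below 0.05), with a loess curve per sub-array (49), with the quantification date as a block (34), with the group fitted alone (39) and with the methods' t-test and Benjamini-Hochberg values (35), which gave 3 without adjustment. Leaving out single replicates gave 0 to 5. In the log2 values deposited by the authors, 107 of 609 features were at least 2-fold changed without a test, 31 induced and 76 repressed, with a median of -0.12. The cause of these shifts was not tested. Of 22 functions with at least 5 tested features, 11 had a median below 0, against 18 in the authors' table. The 4 contrasts had 0 calls under each alternative run. The replicate block changed no other call.

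Of 1153 values of single features under alternatives, 1074 kept their sign and side of the threshold, 46 lost and 17 gained a call, and 16 changed sign. The sign changes were as follows. With the date as a block DY475509 was at 0.012 and DY475430 at -0.012. On leaving out single replicates DY475430 ranged from -0.052 to 0.16, DY475151 from -0.30 to 0.079, CV793597 from -0.92 to 0.59 and DY475138 from -1.12 to 0.28. With a dye term CV793597 was at 0.19. With flagged spots kept DY475555 was at -0.14 and DY475076 at 0.43. In the authors' table DY475430 was at -0.12, DY475151 at 0.081, CV793597 at 0.72, CV793602 at -0.027, DY475059 at -0.048 and DY475555 at -0.62. Replicate 1 gave 278 ratios, so most features with 2 replicates rest on replicates 2 and 3, which had opposite dye orders.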

Other observations

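Among transcripts outside the groups above, a translation initiation factor (DY475237) had log2 ratios of 0.47, 0.25 and 0.21, the most even of those named here. A nuclear transport factor (DY475059) had 0.73, 0.34 and 0.05. A leucine-zipper containing protein (CV793601), of a class of DNA-binding regulators, had -0.31, -0.77 and -0.07, with a mean of -0.38 ± 0.35 (SD, n = 3, adjusted p = 0.475 by limma). A lipid transfer protein (DY475209), of a family that carries lipids outside the cell, had 0.49, 0.71 and -0.05.

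The transcript of unclear function EB085058 had one sign throughout, at -0.57, -0.88 and -0.85. The unknown DY475098 had 1.06, 0.60 and 0.62, and the unknown EB085037 had 0.32, 2.29 and 0.45, where replicate 2 carried the 2-fold mean.

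In 5 brightness classes of nearly equal size, the median of the dimmest class minus that of the brightest was 0.14 in replicate 2 and 0.03 in replicate 3. In replicate 1 the dimmest class held 1 feature with a value, so no difference is given. All 4 called features lay in the 2 brightest classes.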
